A study of Mus musculus with 4 samples.

Results

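The genes described here encode the transcription machinery of RNA polymerase I (Pol I) and RNA polymerase III (Pol III). They cover subunits of both enzymes, the factors that bring them to promoters, the Pol III inhibitor MAF1 and the SNAPc complex. The group comprised 40 genes of 19759 named genes on the array, and each was found through every non-control probe that carried its symbol. One value per gene was taken from its brightest probe well above background. All 40 genes had such a probe, as did 13106 named genes in all.

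Transcripts were measured on 4 two-colour arrays, each with 1 mutant and 1 wild-type pool of whole mouse embryos. The mutant embryos carried the Btaf1 allele V1330M and are written Btaf1-/- in the design text. The wild-type embryos were Btaf1+/+, and both genotypes came from hybrids of C57BL/6J and FVB/NJ with 50 to 90% FVB/NJ. Embryos had 3 to 5 somites where possible, and 300 ng of RNA was labelled per dye. In the age_matched set of pools, litter mates were favoured and the somite number could differ; in the stage_matched set, the somite number came first. Each set was hybridised with the mutant in Cy5 (replicate 1) and again with the dyes exchanged (replicate 2). The dye-exchanged arrays read the same pair of pools, so a set counts as 1 replicate (n = 2 sets). The number of embryos per pool is not given in the sources used here, nor is whether the sets shared embryos. P-values therefore concern these pools only, and their error rests mostly on variance pooled over all probes.

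Pol I transcribes the repeated ribosomal RNA genes in the nucleolus, and Pol III transcribes 5S rRNA, the tRNAs, U6 and other short RNAs. Both depend on the TATA-binding protein TBP, which is part of SL1 at Pol I promoters and of TFIIIB at Pol III promoters, and which works with SNAPc at small nuclear RNA genes. BTAF1 is an ATPase of the SNF2 family that takes TBP off DNA. The arrays read the messenger RNAs of this machinery, which Pol II makes. They do not read its products, and rRNA and tRNA levels were not analysed here.

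Values below are the log2 of mutant over wild type unless another quantity is named, and set values are means of 2 arrays. An SD over the sets therefore leaves out the gap between the dye-exchanged arrays of a set. The share of spots well above background ran from 52.9% to 59.6% per array and dye, and 0 spots were saturated. The single Btaf1 probe had a mean ratio of 0.10 (limma adjusted p = 0.556). That value does not check the genotype, because the allele exchanges an amino acid and leaves the transcript in place. The marker lists were chosen with earlier results of these data known. In them, 13 of 16 visceral endoderm and yolk sac genes fell (median -0.87). So did 11 of 12 heart muscle genes (median -1.31) and 2 of 6 tested primitive red cell genes (median -0.55). The listed genes Gata1, Prl3c1, Ptprc and Nanog were not well above background, and no tested marker was at 0. In RNA from whole embryos, fewer cells of a type and less RNA per cell cannot be told apart.

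Across the machinery as a whole, few genes passed the test between mutant and wild-type pools. At a limma adjusted p under 0.05, 1 of 40 genes fell, the Pol I subunit Cd3eap, and 0 rose. That is 2.5% lower and 0% higher, against 2.80% lower and 2.12% higher over all 13106 genes. At an unadjusted limma p under 0.05 there were 9 members, or 22.5%, against 22.6% of all genes. The median ratio was 0.02 over the members and 0.02 over all genes. The median size of the ratio, sign ignored, was 0.12 in both. With each array centred on its median in place of a loess curve, the members' median was -0.07 and that of all genes -0.06, so the sign of the members' median depends on the scaling.

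The intervals show which ratios the fit allows for these pools. Their width rests mostly on variance pooled over all probes (7.20 of 8.20 degrees of freedom), so they do not bound differences between genotypes in general. For 38 of 40 members (95%) the whole 95% interval of the brightest probe's ratio lay within 1.5-fold in either direction, against 91.0% of all genes. The exceptions were Cd3eap and Twistnb. The intervals reached a median of 0.22 to either side of the ratio, and their standard errors ran from 0.09 to 0.13. A p that misses the threshold does not show equal levels. The count within 1.5-fold holds for the brightest probe alone: intervals of dimmer probes of Bdp1, Polr3g, Polr1a, Gtf3c6 and Taf1d passed 1.5-fold. Ratios were above 0 on all 4 arrays for 4 members (10%, against 14.9% of all genes): Polr1a, Znrd1, Polr3b and Gtf3c3. They were below 0 on all 4 arrays for 8 members (20%, against 13.5%): Cd3eap, Twistnb, Polr1b, Polr1c, Taf1d, Polr3g, Gtf3c2 and Brf1.

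**Figure D1:**
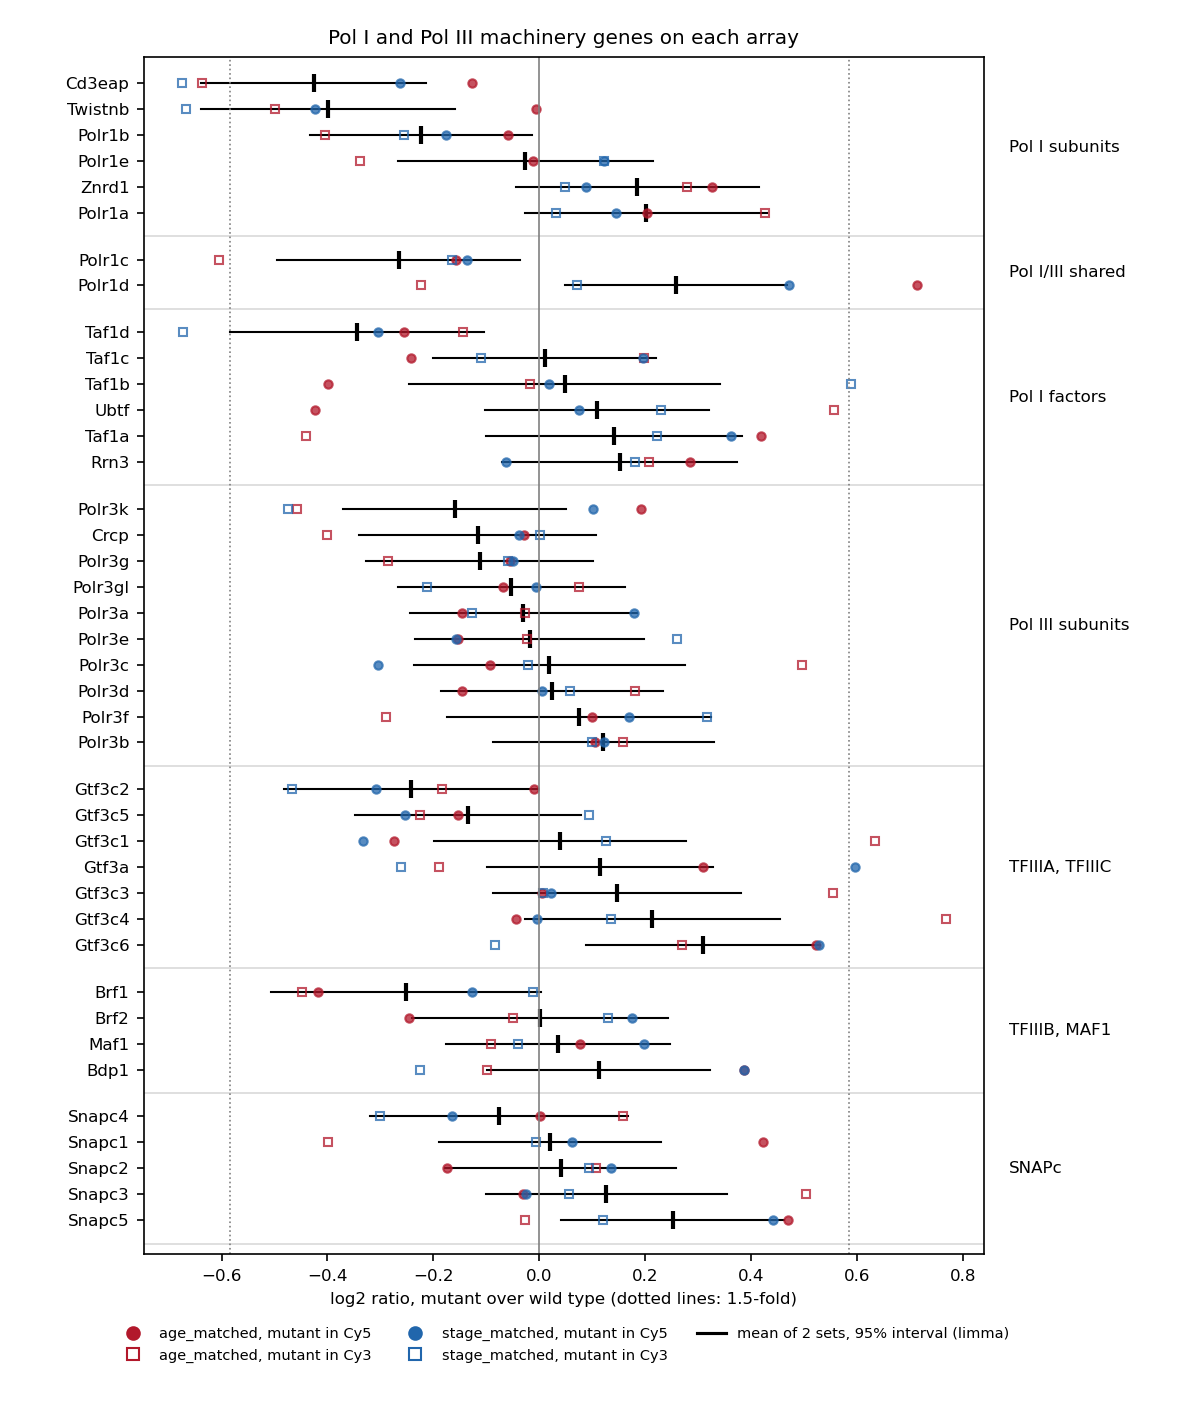
Log2 ratio of mutant over wild type (x axis) for each of the 40 genes (y axis, grouped by complex) on the 4 arrays, with circles for the mutant in Cy5 and open squares for the mutant in Cy3. Black bars give the mean of the 2 sets with its 95% interval from limma, and dotted lines mark 1.5-fold; the intervals of Cd3eap and Twistnb alone pass a dotted line.

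Cd3eap encodes a Pol I subunit that pairs with the Polr1e product on the enzyme. Its ratio was -0.13 and -0.64 on the age_matched arrays and -0.26 and -0.67 on the stage_matched arrays. All 4 arrays were below 0, and in both sets the array with the mutant in Cy3 gave the lower ratio. The mean was -0.43 ± 0.06 (SD, n = 2 sets; 95% interval -0.64 to -0.21), which is 1.34-fold lower in the mutant pools (limma adjusted p = 0.0414). The call was narrow. The ratio kept its sign under all 12 processing alternatives that change the ratios or the genes tested, but passed the threshold under 4 of them, with adjusted p between 0.0176 and 0.238. It was also lost when any array was left out, although every ratio stayed below 0. The share of all genes that passed was lowest without age_matched replicate 1, so the loss there is not particular to Cd3eap. The ratio was -0.55 and -0.30 without age_matched replicates 1 and 2 (limma adjusted p = 0.227 and 0.238), and -0.53 and -0.32 without stage_matched replicates 1 and 2 (limma adjusted p = 0.0535 and 0.116). Its single probe lies at chr7:19942605-19942664 on the minus strand (mm9). In the reference table Cd3eap overlaps Ercc1, a DNA repair gene, whose ratio was 0.10 (limma adjusted p = 0.562).

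The probe and the promoter of Cd3eap are shown because it is the only member that passed the test through the value used. The promoter is the 250 bases before the start in RefSeq (GRCm38.p6, chr7:19359484-19359733, minus strand), and its capitals mark an E-box (CACGTG) and an ETS-type site (CCGGAAG, here on the other strand). The promoter of Twistnb (chr12:33429374-33429623, plus strand), the member with the next lowest ratio, held neither of these motifs nor TATAAA in this window. For each probe here and below, the first 30 of 60 bases are given.
Cd3eap probe A_51_P317443: cagaggaagtggatggtatagtggctgact
Cd3eap promoter: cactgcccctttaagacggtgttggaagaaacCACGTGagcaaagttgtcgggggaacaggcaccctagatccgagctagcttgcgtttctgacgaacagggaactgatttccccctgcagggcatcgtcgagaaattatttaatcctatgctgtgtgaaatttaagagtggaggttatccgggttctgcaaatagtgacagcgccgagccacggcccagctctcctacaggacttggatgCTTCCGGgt
Twistnb promoter: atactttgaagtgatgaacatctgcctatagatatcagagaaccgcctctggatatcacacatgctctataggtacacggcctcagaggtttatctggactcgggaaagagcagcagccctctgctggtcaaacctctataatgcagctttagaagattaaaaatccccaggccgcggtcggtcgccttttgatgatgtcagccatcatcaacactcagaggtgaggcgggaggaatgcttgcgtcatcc

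Among the other Pol I subunits, Twistnb came closest to the threshold. Its product is the counterpart of yeast Rpa43, the subunit through which the yeast enzyme contacts Rrn3. The ratio was -0.01 and -0.50 on the age_matched arrays and -0.42 and -0.67 on the stage_matched arrays. The age_matched array with the mutant in Cy5 was near 0 and the other 3 were clearly below it. The mean was -0.40 ± 0.21 (SD, n = 2 sets; 95% interval -0.64 to -0.16; limma adjusted p = 0.0687). Twistnb passed the threshold under 2 of 12 alternatives, median centring (adjusted p = 0.0419) and the 4 arrays fitted with a dye term (adjusted p = 0.0375). The fit with the dye term counts dye-exchanged arrays of the same pools as separate samples, so its calls rest on technical repeats. Its other tested probe gave -0.10, so the size of the ratio depended on the probe.

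The catalytic subunits lay on opposite sides of 0. Polr1a, the largest subunit, had ratios of 0.20 and 0.43 on the age_matched arrays and 0.15 and 0.03 on the stage_matched arrays, with a mean of 0.20 ± 0.16 (SD, n = 2 sets). Polr1b, the second-largest, had -0.06 and -0.40 on the age_matched arrays and -0.18 and -0.26 on the stage_matched arrays, with a mean of -0.22 ± 0.01. Neither passed the test (limma adjusted p = 0.273 and 0.192), although each kept its sign on all 4 arrays. Znrd1, a small subunit that takes part in RNA cleavage, also stayed above 0 on all 4 arrays at 0.19 ± 0.17, and its other probe gave 0.20. Polr1e was at -0.03 ± 0.21 and differed in sign between the sets. Over the 6 Pol I subunits the median was -0.13, with 1 lower and 0 higher.

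The assembly subunits that Pol I and Pol III share also differed in sign. Polr1c had ratios of -0.16 and -0.61 on the age_matched arrays and -0.14 and -0.16 on the stage_matched arrays. All were below 0, with a mean of -0.27 ± 0.16 (SD, n = 2 sets; limma adjusted p = 0.161). Polr1d had 0.71 and -0.22 on the age_matched arrays and 0.47 and 0.07 on the stage_matched arrays. In both sets its ratio was higher with the mutant in Cy5, by 0.94 in the age_matched set and 0.40 in the stage_matched set. Its mean was 0.26 ± 0.02 (limma adjusted p = 0.143), and its other probe gave 0.17.

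Of the factors that start rRNA transcription, none passed the test (0 of 6, median 0.08). Taf1d, a TBP-associated subunit of SL1, was the lowest, with ratios of -0.25 and -0.14 on the age_matched arrays and -0.31 and -0.67 on the stage_matched arrays. It was below 0 on each array, and all 4 of its tested probes had a mean below 0, from -0.37 to -0.24. The mean of the brightest probe was -0.34 ± 0.20 (SD, n = 2 sets; limma adjusted p = 0.0997). In the reference table Taf1d overlaps the gene 4931406C07Rik, which rose by 0.59 (limma adjusted p = 0.0204), and small nucleolar RNA genes that were not measured. Whether the deposited probes separate overlapping transcripts was not tested.

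The other SL1 subunits, which also bind TBP, had means near 0. Taf1c stood at 0.01 ± 0.05 (SD, n = 2 sets), Taf1b at 0.05 ± 0.36 and Taf1a at 0.14 ± 0.21. Taf1b had -0.40 and -0.02 on the age_matched arrays and 0.02 and 0.59 on the stage_matched arrays, so the sets lay on opposite sides of 0. The other Taf1a probe, printed 10 times on each array, gave -0.09, and its 10 spots varied with an SD of 0.08 to 0.15 within an array. Ubtf, the HMG-box protein that coats the active rRNA genes, had a mean of 0.11 ± 0.06 (limma adjusted p = 0.538). Its probe read -0.42 and 0.56 on the age_matched arrays and 0.07 and 0.23 on the stage_matched arrays, and without age_matched replicate 2 the mean was -0.14. Rrn3, which links Pol I to SL1, was at 0.15 ± 0.13 (limma adjusted p = 0.398), with -0.08 from its other probe.

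By their brightest probes, the 10 specific subunits of the Pol III enzyme ran from -0.16 to 0.12 with a median of -0.02. None passed the test, and the intervals of these 10 probes lay within 1.5-fold. The outermost Polr3g probe was lower, with a 95% interval from -0.79 to -0.18. Polr3a, the largest subunit, was at -0.03 ± 0.08 (SD, n = 2 sets), and Polr3b, the second-largest, at 0.12 ± 0.01. Polr3b had 0.11 and 0.16 on the age_matched arrays and 0.12 and 0.10 on the stage_matched arrays, so its 4 values lay close together and above 0.

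Polr3c, Polr3f and either Polr3g or Polr3gl form a subcomplex that acts at initiation. Polr3c was at 0.02 ± 0.26 (SD, n = 2 sets), Polr3f at 0.07 ± 0.24 and Polr3gl at -0.05 ± 0.08. Polr3g, the form typical of pluripotent cells, was at -0.11 ± 0.08 (limma adjusted p = 0.526) by its brightest probe. In the list of pluripotency and epiblast markers, 1 of 5 tested genes rose (Fgf5) and 0 fell. The pair Polr3d and Polr3e, which acts at initiation and termination, stood at 0.02 ± 0.01 and -0.02 ± 0.10. Crcp, a stalk subunit, was at -0.12 ± 0.14, and Polr3k, which takes part in RNA cleavage, at -0.16 ± 0.04. Polr3k was above 0 on the arrays with the mutant in Cy5 (0.19 age_matched, 0.10 stage_matched) and below 0 on those with the mutant in Cy3 (-0.46 and -0.48).

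TFIIIA and TFIIIC bind inside Pol III genes. Gtf3c6, a TFIIIC subunit, had the highest ratio of all members, with 0.52 and 0.27 on the age_matched arrays and 0.53 and -0.08 on the stage_matched arrays. The stage_matched array with the mutant in Cy3 was below 0 and the other 3 were above it. The mean was 0.31 ± 0.12 (SD, n = 2 sets; 95% interval 0.09 to 0.53; limma adjusted p = 0.107). Its other, dimmer probe gave 0.41 and passed (limma adjusted p = 0.0439). That probe had 0.82 and -0.03 on the age_matched arrays and 0.49 and 0.36 on the stage_matched arrays. In both sets, both probes were higher with the mutant in Cy5. Gtf3c6 passed under the mean over probes (0.36, adjusted p = 0.0383), but not through the brightest probe on all 4 arrays. It also passed without stage_matched replicate 2 (0.46), the array with the mutant in Cy3. Dye bias of the probe then no longer cancels in that set.

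Both Gtf3c6 probes are shown with a promoter window of the gene (GRCm38.p6, chr10:40257713-40257962, minus strand). In mm9 the brightest probe spans chr10:39974072-39974223 and the other lies at chr10:39969323-39969382, both on the minus strand. It was the only member with all 3 motifs that were searched, marked in capitals: TATAAA (on the other strand), CACGTG and CCGGAAG.
Gtf3c6 probe A_52_P627793: tgctggggagtatgaagatacgcttggtac
Gtf3c6 probe A_51_P382732: tgggaactcaagatggagatgtgtctcaaa
Gtf3c6 promoter: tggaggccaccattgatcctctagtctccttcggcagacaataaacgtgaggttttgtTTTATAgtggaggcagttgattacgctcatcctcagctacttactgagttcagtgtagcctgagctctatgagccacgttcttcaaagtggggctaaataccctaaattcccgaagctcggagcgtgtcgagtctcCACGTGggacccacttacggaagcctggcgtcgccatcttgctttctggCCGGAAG

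The remaining TFIIIC subunits did not move as 1 group. Gtf3c4 was at 0.21 ± 0.21 (SD, n = 2 sets), where 0.77 on age_matched replicate 2 stood far above -0.04 on age_matched replicate 1 and -0.0034 and 0.14 on the stage_matched arrays. Gtf3c3 was at 0.15 ± 0.19 and rested in the same way on 0.55 from age_matched replicate 2. Gtf3c1, the largest TFIIIC subunit, was at 0.04 ± 0.20, and without age_matched replicate 2 its mean was -0.19. Gtf3c5 was at -0.13 ± 0.08. Gtf3c2 was below 0 on all 4 arrays, with -0.01 and -0.18 on the age_matched arrays and -0.31 and -0.47 on the stage_matched arrays (mean -0.24 ± 0.21; limma adjusted p = 0.213). Gtf3a, the zinc-finger protein for 5S rRNA genes, was at 0.11 ± 0.08, with 0.31 and 0.60 where the mutant was in Cy5 and -0.19 and -0.26 where it was in Cy3, age_matched first in each case. Over these 7 genes the median was 0.11, with 0 higher and 0 lower.

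TFIIIB holds TBP at Pol III promoters. Brf1, the subunit used at tRNA and 5S genes, had ratios of -0.42 and -0.45 on the age_matched arrays and -0.13 and -0.01 on the stage_matched arrays. All 4 were below 0. The mean was -0.25 ± 0.26 (SD, n = 2 sets; limma adjusted p = 0.224). Brf2, which replaces Brf1 at U6-type promoters, was at 0.0020 ± 0.21 with the sets on opposite sides of 0. Maf1, which represses Pol III under stress and nutrient limitation, was at 0.04 ± 0.06 (95% interval -0.18 to 0.25; limma adjusted p = 0.855).

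Bdp1, the TFIIIB subunit common to all Pol III promoter types, had a brightest probe that differed in sign from the others of its 3 tested probes. The brightest had 0.39 and -0.10 on the age_matched arrays and 0.39 and -0.23 on the stage_matched arrays, with a mean of 0.11 ± 0.04 (SD, n = 2 sets; limma adjusted p = 0.520). The probe 5.49 kb further upstream had a mean of -0.35 (limma adjusted p = 0.133). The probe 47.7 kb upstream had -0.49 and -0.36 on the age_matched arrays and -0.72 and -1.05 on the stage_matched arrays. It was below 0 on all 4 arrays, at -0.65 (95% interval -0.93 to -0.38, limma adjusted p = 0.0265). This probe was well above background on 4 arrays in the wild-type channel, but on 3 in the mutant channel. It was therefore tested only through the wild-type channel, where it read higher, so its call is not independent of that filter. The intervals of the brightest and the outermost probe did not overlap, and the mean over the 3 probes was -0.30 (adjusted p = 0.108). Under median centring the brightest probe moved to just below 0 (-0.00068).

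Across all members, 75 probes carried a member's symbol and 65 were tested. The threshold was passed by 3: the Cd3eap probe, the dimmer Gtf3c6 probe and the outermost Bdp1 probe, tested only through its wild-type channel. Over all genes, at 1 value per gene, 4.92% passed. Of the 40 genes, 21 had 1 tested probe and 19 had more. The probes of a gene spanned over 0.3 in 4 genes (Bdp1, Snapc3, Polr3g and Twistnb). They differed in sign in 5 (Bdp1, Snapc3, Rrn3, Taf1a and Snapc1). The same counts over all genes were not made, so whether these are unusual was not tested. Polr3g showed the same order as Bdp1, with -0.11 at the probe nearest the 3′ end, -0.24 at 1.90 kb and -0.48 at 20.6 kb upstream (limma adjusted p = 0.0801 for the last). Twistnb was also lower at the upstream probe, 1.61 kb away. Snapc3 was not ordered, with 0.13, -0.33 and 0.13 from the 3′ end outwards. The order was read only in these 4 genes, picked because their probes differ. Among the other members with several tested probes, both orders occurred. The upstream probe was the higher in Polr1a and Polr3c, for example, and the lower in Rrn3 and Polr3e. The probes of Bdp1 and Polr3g are shown because the ratio depends on which is read. On the minus strand of mm9 chromosome 13, those of Bdp1 start at 100788190, 100793683 and 100835901, and those of Polr3g at 81813003, 81814900 and 81833647, in the order given. No mm9 annotation was used here, so whether they read the same transcript form was not tested.
Bdp1 probe A_52_P640074: atgttgcaaggaatttgttatagaaatctt
Bdp1 probe A_51_P316575: tgactcaaacccatagtaagaagcgcctaa
Bdp1 probe A_51_P163797: ctaatgaggagtcgaatgcaaagaccaaag
Polr3g probe A_51_P410949: gctgcttgactaccataaatcttgtttact
Polr3g probe A_52_P662785: ccgtattttctgttgttcagtgttctgtat
Polr3g probe A_52_P405090: agttgagggaaacagtgaaacgattgccgt

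**Figure D2:**
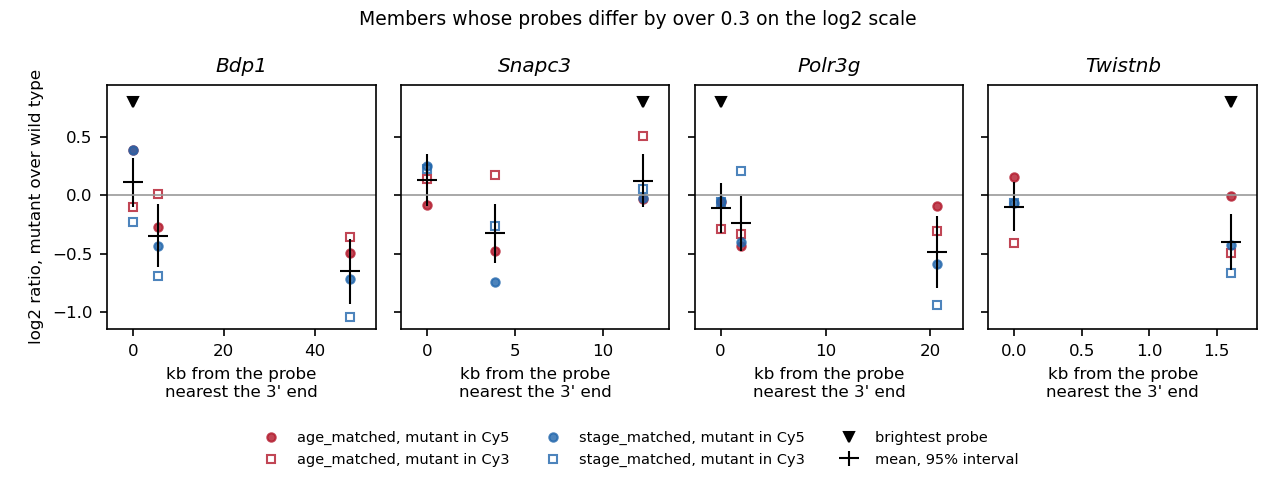
Log2 ratio of mutant over wild type (y axis) for each tested probe of Bdp1, Snapc3, Polr3g and Twistnb, against its distance in kb from the gene's probe nearest the 3′ end (x axis). Coloured points are the 4 arrays, black bars the mean with its 95% interval, and triangles mark the brightest probe. Bdp1 runs from 0.11 at the 3′ end to -0.65 at 47.7 kb, where the probe was tested only through the wild-type channel.

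SNAPc recruits TBP to the U6 promoter and to the Pol II small nuclear RNA genes. None of its 5 subunits passed the test, and the median was 0.04. Snapc5 was the highest, with 0.47 and -0.03 on the age_matched arrays and 0.44 and 0.12 on the stage_matched arrays (mean 0.25 ± 0.04, SD, n = 2 sets; limma adjusted p = 0.152). It too was higher on the arrays with the mutant in Cy5. Snapc4, the large DNA-binding subunit, was at -0.08 ± 0.22, Snapc1 at 0.02 ± 0.01, Snapc2 at 0.04 ± 0.10 and Snapc3 at 0.13 ± 0.16. The small SD of Snapc1 hides a wide gap between dyes. Its probe read 0.42 and -0.40 on the age_matched arrays and 0.06 and -0.01 on the stage_matched arrays. The other Snapc1 probe gave -0.09. The intervals of the 5 brightest probes lay within 1.5-fold.

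The second comparison set the mutant-over-wild-type ratio of the age_matched set against that of the stage_matched set. Each set holds a single pair of pools, so the design cannot be told apart from the particular pools. No member passed (0 of 40 by limma, against 2.18% of all genes). The median difference, age_matched minus stage_matched, was -0.02 over the members and 0.01 over all genes. Taf1b had the largest, at -0.51 (95% interval -0.86 to -0.17; limma unadjusted p = 0.00363, adjusted p = 0.103), from a set mean of -0.21 in the age_matched set and 0.30 in the stage_matched set. Brf1 differed by -0.36 (-0.43 age_matched, -0.07 stage_matched; limma adjusted p = 0.371) and Polr3c by 0.37 (0.20 age_matched, -0.16 stage_matched; limma adjusted p = 0.368). The error behind these values is the technical spread between dye-exchanged arrays and holds no variation between embryos. That spread was wider in the age_matched set, where the dye-exchanged arrays differed by a median of 0.36 over the members and 0.27 over all genes, than in the stage_matched set, at 0.16 and 0.20. Heart muscle markers, in contrast, differed between the sets in 11 of 12 genes, with a median ratio of -1.80 in the age_matched set and -0.79 in the stage_matched set. So did 2 of 3 tested genes of the maternal decidua and blood list. The adult globin gene Hbb-b1 had a mean of 0.91 in the age_matched set and -1.35 in the stage_matched set (difference 2.26; limma adjusted p = 2.52e-27). Prl8a2, a prolactin-family gene of the decidua, had 0.51 in the age_matched set and -0.94 in the stage_matched set (difference 1.45; limma adjusted p = 7.36e-12). The part of these shifts in the members' ratios was not tested.

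**Figure D3:**
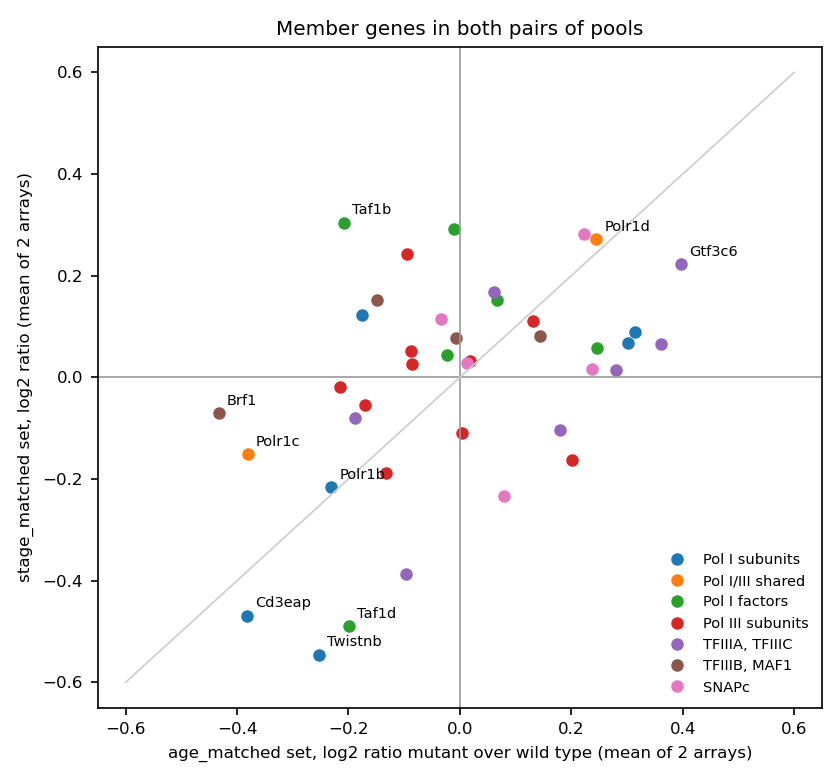
Mean log2 ratio of mutant over wild type in the age_matched set (x axis) against the stage_matched set (y axis) for the 40 genes, coloured by complex, with the diagonal of equal ratios. Cd3eap, Twistnb, Taf1d, Polr1b, Polr1c and Brf1 lie below 0 in both sets, and Taf1b lies on opposite sides of 0 (-0.21 age_matched, 0.30 stage_matched).

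Genes that work beside the machinery were read from lists written from general knowledge, with earlier results of these data known. Of the subunits shared with Pol II, 5 were tested and 0 passed; they ran from -0.30 (Polr2f) to 0.22 (Polr2l). Among TBP, its relatives and partners of SNAPc, 1 of 5 rose and 1 fell, against 2.12% higher and 2.80% lower over all genes. A list of 5 genes is too short to compare with those shares. Tbpl1, a TBP relative that does not bind the TATA box, had 0.67 and 0.32 on the age_matched arrays and 0.69 and 0.35 on the stage_matched arrays, and it rose by 0.51 ± 0.02 (SD, n = 2 sets; limma adjusted p = 0.0249). All 4 arrays were above 0, but its other probes gave 0.22 and 0.16 and did not pass. Zfp143, a zinc-finger activator of small nuclear RNA genes, had -0.54 and -0.50 on the age_matched arrays and -0.56 and -0.30 on the stage_matched arrays. It fell by 0.48 on the log2 scale (mean -0.48 ± 0.06; limma adjusted p = 0.0300). TBP itself was at 0.05 ± 0.08 (95% interval -0.17 to 0.26; limma adjusted p = 0.813) and Pou2f1 (Oct-1) at -0.06 ± 0.25. Without age_matched replicate 1 both calls were lost (Tbpl1 0.42, adjusted p = 0.344; Zfp143 -0.47, adjusted p = 0.283), as they were without stage_matched replicate 1 (0.42, adjusted p = 0.101; -0.41, adjusted p = 0.122). Zfp143 also missed without age_matched replicate 2 (adjusted p = 0.0707). Over the 12 alternatives, Tbpl1 passed under 7 and Zfp143 under 6. The share of all genes that passed was lowest without age_matched replicate 1, so the loss there is not particular to Tbpl1 and Zfp143.

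Among regulators of rDNA transcription, 16 of 18 listed genes were tested and 0 passed, with a median of -0.14. Over all genes, 2.80% passed as lower and 2.12% as higher. The lowest was Baz2a, the large subunit of a complex that silences rDNA, at -0.75 ± 0.72 (SD, n = 2 sets; limma adjusted p = 0.0719). Its ratio was -0.73 and 0.26 on the age_matched arrays and -1.52 and -0.99 on the stage_matched arrays, and its other probes gave 0.08, -0.69 and -0.56, of which the probe at -0.69 passed (limma adjusted p = 0.0412). Tcof1, the nucleolar protein treacle that works with UBF, was below 0 on all 4 arrays at -0.44 ± 0.20 (limma adjusted p = 0.0516), and it passed under 6 of 12 alternatives. Myc stood at -0.11 ± 0.05, but read -0.45 and 0.31 on the age_matched arrays and -0.64 and 0.34 on the stage_matched arrays. Rbl1, a pocket protein, was the highest at 0.42 ± 0.13 (limma adjusted p = 0.0507). Counts of passing genes in this list are therefore sensitive to small shifts in p.

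The products of both polymerases are processed by large sets of proteins. Over all genes, 2.80% passed as lower and 2.12% as higher, and the counts of these lists are to be read beside those shares. Of 52 genes for rRNA processing and small nucleolar RNPs, 1 fell and 0 rose, with a median of 0.0036. The gene that fell was Nop10, a component of H/ACA particles, with -0.61 and -0.09 on the age_matched arrays and -0.58 and -0.65 on the stage_matched arrays (mean -0.48 ± 0.18, SD, n = 2 sets; limma adjusted p = 0.0383). All arrays were below 0, and age_matched replicate 2 was the nearest to it. With age_matched replicate 1 left out, few genes in the whole table passed. The call was lost without age_matched replicate 1 (-0.35, adjusted p = 0.477) and without stage_matched replicate 1 (-0.50, adjusted p = 0.0649), and Nop10 passed under 6 of 12 alternatives. Of 24 genes for RNase P, RNase MRP and Pol III transcript processing, 0 passed, with a median of 0.07 and a range from -0.27 (Lsm4, part of the ring on U6) to 0.51 (Pop4, an RNase P subunit). In the list of p53 targets, chosen with earlier results of these data known, 8 of 10 rose, with a median of 1.34. The part of the yolk sac, heart and p53 list shifts in the ratios above was not tested.

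**Figure D4:**
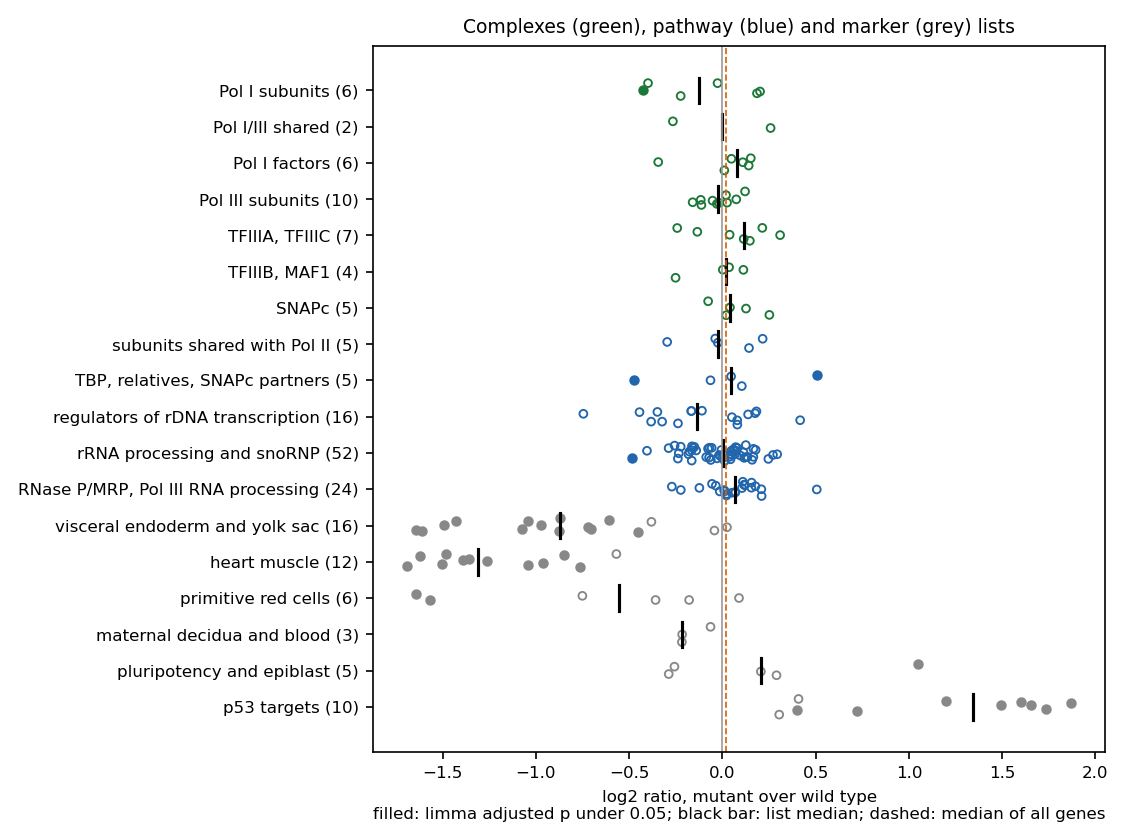
Log2 ratio of mutant over wild type (x axis) of each gene in the 7 complexes (green), the other pathway lists (blue) and the marker lists (grey), with the number of tested genes in brackets. Filled points passed limma at an adjusted p under 0.05, black bars are list medians, and the dashed line is the median of all genes (0.02); the complexes stay between -0.43 and 0.31 while the heart muscle list has its median at -1.31.

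Features that did not enter the choice of members were also read. The brightest probes lay on 17 chromosomes, besides Taf1a, which the files place on an unassembled part of chromosome 1, and 0 members lay on chromosome 19, which holds Btaf1. In 3 neighbouring pairs the probes were under 500 kb apart. Gtf3c5 and Gtf3c4 (259.7 kb apart) had -0.13 and 0.21, Polr3gl and Polr3c (133.6 kb apart) had -0.05 and 0.02, and Gtf3a and Polr1d (123.7 kb apart) had 0.11 and 0.26. Promoters were available for 34 of the 40 members, and the 250 bases before each start were searched on both strands. TATAAA was present in 1 of 34 members (2.94%, Gtf3c6), against 14.3% of 27025 genes. CACGTG was present in 5 (14.7%: Cd3eap, Gtf3c6, Polr3c, Polr3gl and Rrn3), against 6.86% of all genes. CCGGAAG was present in 10 (29.4%), against 7.83%: Bdp1, Cd3eap, Gtf3c1, Gtf3c2, Gtf3c6, Polr1c, Polr3b, Polr3g, Taf1a and Taf1c. Here all genes are the 27025 with a promoter in the reference, whether or not they were detected on the arrays. A gene counted if any of its promoters matched. The members were not compared with detected genes alone. The searched motifs do not overlap each other, and a match describes letters in the window only. The members with CACGTG ranged from Cd3eap at -0.43 to Gtf3c6 at 0.31, and those with CCGGAAG covered the same range.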

How the data were processed

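The members and gene lists were chosen with earlier results of these data known. Spot mean and local background intensity per dye were deposited as scanned, and per the file headers the software subtracted background and balanced the dyes to make the processed intensity columns. Its log10 ratio is processed Cy5 over Cy3, per the file headers. The value table deposited by the authors repeats these log10 ratios, with dye-exchanged arrays turned to mutant over wild type (largest difference 4.96e-06, median 0 per array, 0 unassigned columns). Feature Extraction is given as 9.5.3 in the labels and as 10.5.1.1 in the file headers. All 4 arrays shared 1 slide and 1 scan. The steps behind the authors' own analysis are not given in the sources used here.

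Log2 ratios were computed from the deposited mean and background intensities with limma 3.58.1 in R 4.3.3: normexp (offset 50), loess within arrays with control and marked spots at weight 0, all ratios turned to mutant over wild type, and repeated spots averaged per probe. Loess removes intensity-dependent dye bias, while dye bias of single probes can remain and cancels only in the mean of a set. Of 41174 probes, 21930 were well above background in the mutant or the wild-type channel on all 4 arrays and were tested; 36 more had a marked spot. The mutant to wild-type ratio was tested on the 2 set means with limma (two-sided, 7.20 prior degrees of freedom, Benjamini-Hochberg over all tested probes, threshold 0.05). The set difference was fitted on 4 arrays with set and dye terms. The number of arrays limits the precision. The procedure was first tested on simulated data. All 40 members were named, each by its brightest tested probe, with other probes where they differed in sign or by over 0.3. Alternatives covered background correction, normalization, the dim-probe filter, each array left out, the deposited table, the dye term, the mean over probes and older gene names. Positions of probes come from the files (mm9), promoters are from RefSeq (GRCm38.p6), and that table's older names added 1 probe, which was not well above background.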

Additional observations from a re-analysis of the deposited data

Results flagged for a closer look

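No member passed the test of the difference between the sets, and groups of 2 arrays allow no test for an outlying array. Among the other genes of the pathways, 4 had a mutant-over-wild-type ratio that differed between the sets by limma. The difference, age_matched minus stage_matched, was -0.95 for Pop4 (0.03 in the age_matched set, 0.98 in the stage_matched set; adjusted p = 3.76e-05) and 0.72 for Utp14a (-0.05 age_matched, -0.76 stage_matched; adjusted p = 0.00518). It was 1.02 for Baz2a (-0.24 age_matched, -1.25 stage_matched; adjusted p = 9.30e-06) and -0.67 for Ncl, which encodes nucleolin (-0.57 age_matched, 0.09 stage_matched; adjusted p = 0.0123). Both probes of Pop4 were higher in the stage_matched set, with 0.82 and 0.53 from the other probe there against 0.14 and -0.50 in the age_matched set. Of the other Ncl probes, the first had -0.67 and -0.46 on the age_matched arrays and 0.09 and 0.08 on the stage_matched arrays, but the remaining 2 did not show that direction, with -0.19, 0.18, 0.07 and -0.07 on the age_matched arrays and -0.39, -0.09, -0.03 and -0.51 on the stage_matched arrays. Of the 3 other Baz2a probes, 1 showed little difference, with 0.24 and -0.05 on the age_matched arrays and -0.01 and 0.14 on the stage_matched arrays. The error of this test comes from technical spread between the dye orientations, so it covers no variation between embryos. None of the 4 passed with no background correction or with median centring, and Utp14a and Ncl also did not with the processed signals. Ncl was singled out after its values were seen.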

How the results depend on the processing

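The count of members past the threshold (1, Cd3eap) was 0 with no background correction, with the processed signals, with the deposited table and with no filter on dim probes. It was 2 with median centring and with the replicate block, the 4 arrays fitted with a dye term (Cd3eap and Twistnb both times; the block counts technical repeats as samples), and 2 with the mean over probes (Cd3eap and Gtf3c6). Leaving out 1 array gave 0 to 1, and the 1 was Gtf3c6. Aquantile leaves ratios unchanged by construction and is not counted among the alternatives. The count was again 1 (Cd3eap) with both channels required above background and with older names. The members' median of 0.02 moved to -0.070 with median centring, against -0.06 over all genes there, and ran from -0.039 to 0.025 with 1 array left out. The share of all genes past the threshold ran from 0.137% without age_matched replicate 1 to 9.14% with the replicate block, and was 0.427% with no background correction, so a member's call moves with the whole table. The set difference had 0 members under the other 5 alternatives run for it. Replicate numbers stand for dye orientation and pair no animals. With 2 pairs of pools, smaller differences than the intervals given are not resolved.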
